A study of Mus musculus with 441 samples.

Results

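The nuclear genes for the subunits of the oxidative phosphorylation complexes were followed in mouse embryonic stem cells (mESCs) lacking Dgcr8, in wild-type mESCs in 2i and in serum, and in neural precursor cells. Members were taken by name, as rows starting with Nduf and a letter a, b, c, s or v (complex I), Sdha to Sdhd (complex II), Uqcr (complex III), Cox4 to Cox8 (complex IV) or Atp5 (complex V). This gave 86 of 21001 rows of the bulk RNA table, 86 of 22392 of the mESC single-cell table, 81 of 18848 of the neural precursor table and 85 of 23167 ChIP windows. By complex, the bulk rows were 37, 4, 9, 18 and 17 for complexes I to V. Uqcr and Uqcr11 carried identical values and were counted as 1 gene. Cox4nb fits the naming rule, but it is the neighbour of Cox4i1 now called Emc8 and no subunit, so it was counted among the members and placed in no complex. Ndufa4, listed here under complex I by its name, is now regarded as a subunit of complex IV, and Atp5s and Atp5sl are not structural subunits.

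The Dgcr8 knockout line (Dgcr8 -/-, in the v6.5 background) was grown in serum with LIF, a cytokine that keeps mESCs undifferentiated. Dgcr8 is the partner of Drosha in microRNA processing, so these cells lack mature canonical microRNAs. Wild-type v6.5 mESCs were grown in 2i with LIF, a medium that blocks the kinases MEK and GSK3, or in serum with LIF. The neural precursors (NPCs) were derived from v6.5 mESCs in culture by selection and then expansion with bFGF, and the labels call them nestin-positive. Bulk RNA came from 2 knockout, 1 2i and 2 serum libraries, and single cells from 84 knockout, 94 2i, 90 and 93 serum (plates 1 and 2) and 54 NPC cells. Each condition of mESCs had 1 ChIP library per mark. All mESC groups thus shared LIF, the knockout and the serum groups also shared serum, and the knockout was 1 line.

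Oxidative phosphorylation couples electron transfer in the inner mitochondrial membrane to ATP synthesis. Complexes I and II pass electrons from NADH and succinate to coenzyme Q, complex III passes them on to cytochrome c, complex IV reduces oxygen, and complex V uses the proton gradient to make ATP. Each complex but complex II combines a few subunits made from mitochondrial DNA with many nuclear subunits. Several subunits of complex IV exist as paired isoforms, one in most tissues and one largely in muscle, heart or testis. Pluripotent cells rely heavily on glycolysis, and the naive state held by 2i is known for a greater use of mitochondrial respiration than primed states.

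RNA levels are given in TPM, a share of transcripts corrected for length. The level of the median gene differed between libraries, so that a scale had to be chosen. Relative to serum, the median gene as deposited was 1.13 higher on the log2(TPM + 1) scale in knockout and 0.24 higher in 2i bulk libraries, and on the plates it was 1.56 and 1.33 higher. Knockout bulk libraries held 11057 and 10820 genes at 1 TPM or more, against 8991 in 2i and 8367 and 7562 in serum. The 10 most abundant rows took 29.6% and 28.8% of TPM in knockout, 23% in 2i and 21.3% and 22.3% in serum bulk libraries. Levels below were therefore centred on the median gene of each library, and a direction is given for a gene only where it held with the centred values, with the values as deposited and after quantile normalisation (3 scalings), unless stated. Dgcr8 itself had 4.03 and 2.2 TPM in knockout, 4.66 TPM in 2i and 10.6 and 10.3 TPM in serum bulk libraries. Its transcript in the knockout was thus lower than in serum and not absent, and knockout library 1 lay near the wild-type 2i library. Plate means of Dgcr8 were 16 TPM in knockout, 34 TPM in 2i and 72.5 and 27 TPM in serum cells. All 8 mESC markers were present in every mESC library, with summed TPM of 39848 and 42425 in knockout, 39327 in 2i and 18141 and 18326 in serum bulk libraries. On the NPC plate the neural precursor markers summed to 1388 TPM, fibroblast markers to 306 and mESC markers to 663, and the part of those other cells in the NPC values was not tested.

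Subunit genes were among the most abundant transcripts of every library. Of the 81 members that passed a mean of 1 TPM in bulk, 78 lay above the median gene in each library, and 56 lay in the top 10% of genes in both knockout libraries, 61 in 2i and 54 in both serum libraries. The 4 members below the minimum were Cox4i2, Cox6a2, Cox8b and Ndufa4l2, isoforms known mainly from lung, muscle and hypoxic cells. In sum the members took 3.06% and 3.17% of TPM in knockout, 4.56% in 2i and 2.46% and 2.4% in serum bulk libraries. On the plates they took 4.24% in knockout, 4.54% in 2i and 1.91% and 2.35% in serum cells. The knockout and 2i values thus lay above both serum values in both assays. Fewer cells that express a gene and less RNA per cell cannot be told apart in the bulk libraries.

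**Figure D1:**
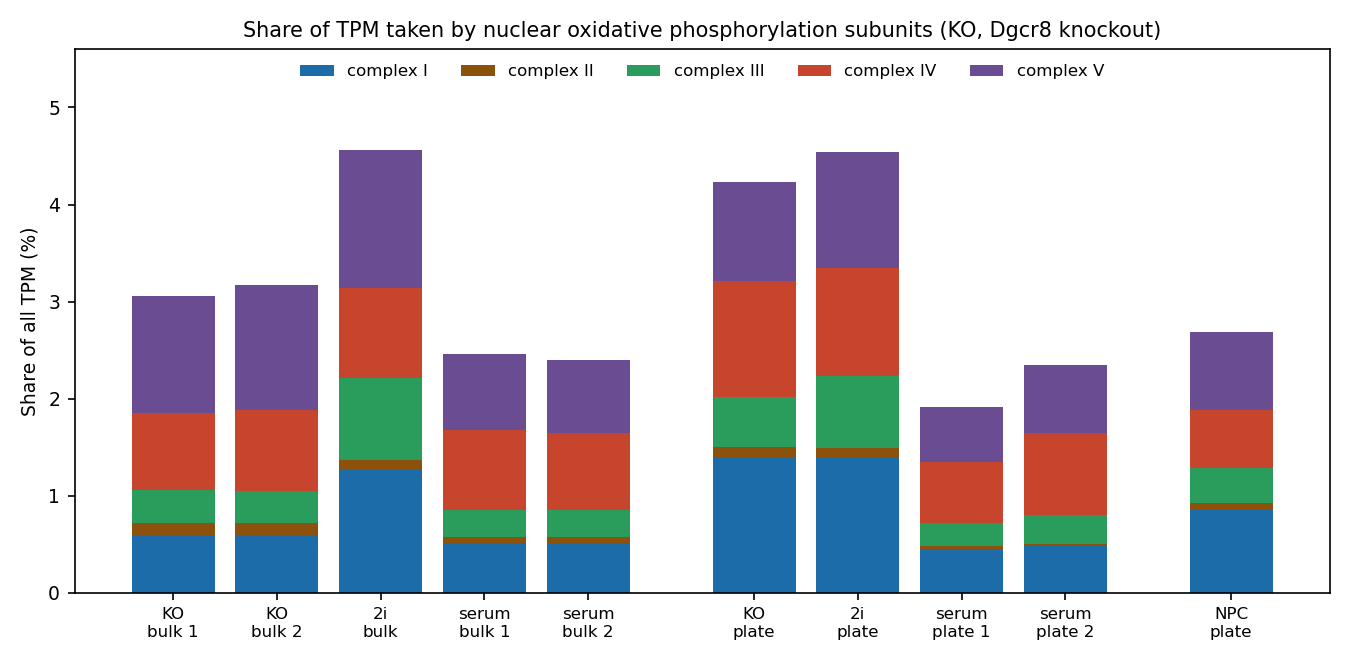
Share of all TPM (percent, vertical axis) taken by the members of complexes I to V in each bulk library and, as the mean over cells, each plate, with 1 bar per library. Bulk libraries reached 3.06% and 3.17% in the knockout and 4.56% in 2i against 2.46% and 2.4% in serum, and knockout and 2i plates stood above both serum plates.

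The added share was not spread evenly over the complexes. Complex I took 0.596% and 0.592% of TPM in knockout, 1.27% in 2i and 0.502% and 0.507% in serum bulk libraries. Complex III took 0.332% and 0.337% in knockout, 0.847% in 2i and 0.277% and 0.282% in serum. Complex V took 1.21% and 1.29% in knockout, 1.42% in 2i and 0.787% and 0.752% in serum. Complex II took 0.127% and 0.124% in knockout, 0.0987% in 2i and 0.0731% and 0.068% in serum. Complex IV differed little in bulk, with 0.794% and 0.829% in knockout, 0.922% in 2i and 0.82% and 0.789% in serum, but on the plates it took 1.19% in knockout, 1.12% in 2i and 0.624% and 0.846% in serum. Atp5b, the catalytic beta subunit of complex V, alone reached 3392 and 3988 TPM in knockout, against 295 TPM in 2i and 214 and 194 TPM in serum.

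In the knockout, single subunits moved strongly in both directions. With centred values 17 of 81 members rose and 50 fell relative to serum (limma, Benjamini-Hochberg adjusted p under 0.05), where 21.8% of all 8988 genes tested rose and 36.4% fell. As deposited, 42 rose, where 62.7% of all genes did, and 22 fell, where 11.8% did, so that no direction can be given to the family as a whole. Under all 3 scalings 17 members rose, against 21.8% of all genes, and 20 fell, against 11.4% of all genes. These 20 were 5 members of complex I, 1 of complex II, 3 of complex III, 5 of complex IV and 6 of complex V. Without knockout library 2 the centred count of risen members was 11.

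In the 2i bulk library most subunits rose. With centred values 44 of 81 members rose relative to serum, where 14.1% of all genes rose, and 7 fell, where 18.4% of all genes fell. As deposited 60 rose, against 20.6% of all genes, and 6 fell, against 12%. The median centred difference was 0.86 on the log2 scale for complex I, 0.13 for complex II, 1.08 for complex III, 0.66 for complex IV and 0.5 for complex V, against -0.04 over all genes. Under all 3 scalings the same 44 members rose, against 14.1% of all genes, and 6 fell, against 11.8%. The 44 included 22 of 36 tested members of complex I and 5 of 8 of complex III. The 2i group was a single bulk library, assumed in the fit to vary like the other groups.

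**Figure D2:**
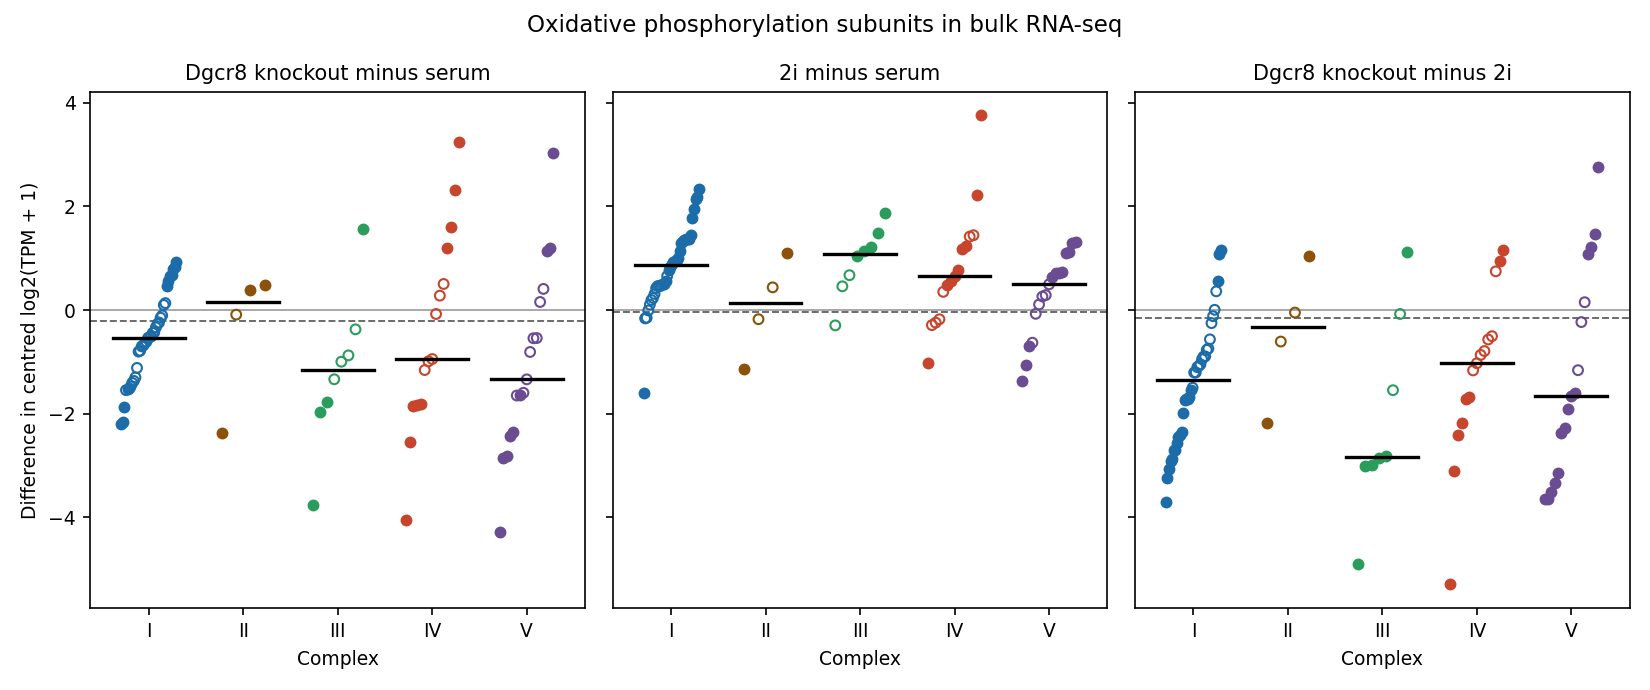
Difference in centred log2(TPM + 1) between bulk groups (vertical axis) for every tested member of complexes I to V, with 1 point per gene, a black bar at the median of the complex and a dashed line at the median of all genes tested. Filled points passed the test in the same direction under all 3 scalings (17 rose and 20 fell in knockout against serum, 44 and 6 in 2i against serum, 11 and 39 in knockout against 2i), and open points did not.

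A pair of tissue isoforms of complex IV rose in knockout and in 2i, in both assays. Cox6b2, known as the testis isoform of the COX6B subunit that joins the monomers of the complex IV dimer, had 111 and 131 TPM in knockout, 92.6 TPM in 2i and 4.32 and 5.42 TPM in serum bulk libraries. All knockout and 2i libraries lay far above both serum libraries. Its centred log2 difference was 3.25 ± 0.21 (SE; limma adjusted p = 2.67e-05) in knockout and 3.76 ± 0.25 (adjusted p = 0.000121) in 2i, each relative to the same serum libraries. The direct difference between knockout and 2i was -0.51 ± 0.25 and did not pass (adjusted p = 0.135). The plates showed mean levels of 236 TPM in knockout cells, 176 TPM in 2i cells and 11.6 and 9.06 TPM in serum cells. Every knockout and 2i cell held at least 1 TPM of Cox6b2, against 71.1% and 68.8% of serum cells. The paired isoform of most tissues, Cox6b1, had 742 and 706 TPM in knockout, 1300 TPM in 2i and 640 and 637 TPM in serum, so it remained the more abundant of the pair in every library.

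Cox7a1, the heart and muscle isoform of a small complex IV subunit, behaved alike. It had 24.8 and 40.3 TPM in knockout, 35.1 TPM in 2i and 4.51 and 6.67 TPM in serum bulk libraries, with centred differences of 1.2 ± 0.31 (limma adjusted p = 0.0145) in knockout and 2.23 ± 0.38 (adjusted p = 0.00502) in 2i. On the plates its mean was 197 TPM in knockout, 90.3 TPM in 2i and 8.14 and 9.51 TPM in serum cells. Cells that held at least 1 TPM made up 100% in knockout, 96.8% in 2i and 54.4% and 72% in serum. In NPCs the mean was 9.91 TPM, and 13% of cells held at least 1 TPM. Of the 4 genes of the muscle marker list, 3 were at 0 on each mESC plate. The other, Acta1, had 4.37 TPM on the knockout plate, 17.3 TPM on the 2i plate and 108 and 35.9 TPM on the serum plates. A link between these markers and Cox7a1 was not tested. The paired isoform Cox7a2 moved the other way in the knockout, with 102 and 93.6 TPM in knockout, 461 TPM in 2i and 272 and 253 TPM in serum bulk libraries (knockout against serum -2.54 ± 0.12, limma adjusted p = 1.08e-05).

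Promoters of both genes are from RefSeq (mouse build GRCm38.p6, 250 bases before the gene start to 50 after it, on the strand of the gene). They are shown because these isoforms rose in knockout and in 2i in both assays. Capitals mark a CCAAT box on either strand, the element read by the factor NF-Y. Cox6b2 lies at chr7:4753045-4753344 (minus strand) and Cox7a1 at chr7:30183921-30184220 (plus strand).
Cox6b2: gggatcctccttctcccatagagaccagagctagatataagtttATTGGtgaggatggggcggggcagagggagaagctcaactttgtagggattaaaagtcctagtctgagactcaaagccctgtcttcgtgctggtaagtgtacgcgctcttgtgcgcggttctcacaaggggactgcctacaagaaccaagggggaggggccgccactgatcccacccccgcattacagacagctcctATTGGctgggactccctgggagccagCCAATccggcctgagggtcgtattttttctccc
Cox7a1: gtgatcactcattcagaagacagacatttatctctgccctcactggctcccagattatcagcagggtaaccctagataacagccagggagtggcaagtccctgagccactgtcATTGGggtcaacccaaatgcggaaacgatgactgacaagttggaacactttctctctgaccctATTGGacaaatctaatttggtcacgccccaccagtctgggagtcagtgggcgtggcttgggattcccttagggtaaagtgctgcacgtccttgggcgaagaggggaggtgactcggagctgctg
The Cox6b2 window holds 10 CpG dinucleotides and 3 CCAAT boxes, and the Cox7a1 window 7 CpG and 2 boxes. The promoters of their partners hold 17 CpG (Cox6b1) and 20 CpG (Cox7a2), near the median of 19 over the 69 members matched in the promoter table, where the median of all 27025 promoters was 7.

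The ChIP counts in the windows of these genes differed between the isoforms. In the Cox6b2 window (mm9 chr7:4704004-4705004), H3K4me3, the mark of active promoters, had 418 reads in knockout, 671 in 2i and 872 in serum. After centring the log2 ratios of all windows with at least 20 reads in both libraries together on a median of 0, which allows for depth, these were ratios to serum of 0.22 (95% interval 0.04 to 0.38) in knockout and 0.25 (0.1 to 0.39) in 2i, intervals that cover counting error only. For H3K27ac in the Cox6b2 window the ratios were 0.38 (0.16 to 0.61) in knockout and 0.46 (0.25 to 0.67) in 2i. The median member also had a positive H3K27ac ratio in both groups, whose size depended on the scaling, as given below. The Cox7a1 window (mm9 chr7:30968689-30969689) held far fewer H3K4me3 reads, 29 in knockout, 39 in 2i and 59 in serum, below the median window of each library. RNA polymerase II in the Cox7a1 window had 197 reads in knockout, 102 in 2i and 123 in serum, and the ratio of knockout to serum was 0.52 (0.19 to 0.86).

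The remaining tissue isoforms of complex IV were near 0. Cox6a2 and Cox8b, the muscle isoforms, and Cox4i2, the lung isoform, reached at most 1 TPM in any bulk library. Cox8c, a testis isoform, had 6.08 TPM in knockout library 1 and 0.353 TPM in library 2, and was listed at 0 in 2i and serum. Cox7b2, also known from testis, had 1.69 and 0 TPM in knockout, 3.72 TPM in 2i and 0.244 and 0.789 TPM in serum. On the plates a minority of knockout cells held 1 TPM or more of Cox4i2 (17.9%), Ndufa4l2 (23.8%), Cox8c (9.52%) or Cox8b (5.95%), while all 4 were listed at 0 in 2i and serum cells.

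Among the common subunits of complex IV, Cox6a1 and Cox8a rose in both mESC groups in bulk. Cox6a1, the common partner of Cox6a2, had 1620 and 1723 TPM in knockout, 407 TPM in 2i and 163 and 141 TPM in serum bulk libraries. Its centred difference was 2.32 ± 0.12 (limma adjusted p = 1.53e-05) in knockout and 1.17 ± 0.15 (adjusted p = 0.00161) in 2i. On the plates it had 1916 TPM in knockout, 1294 TPM in 2i and 296 and 247 TPM in serum cells. Its plate differences from serum were 1.26 in knockout and 0.92 in 2i after centring, against 2.82 and 2.25 as deposited. The centred 2i difference on the plates did not pass. Cox8a had 999.8 and 981 TPM in knockout, 277 TPM in 2i and 145 and 151 TPM in serum bulk libraries. On the plates it had 1148 TPM in knockout, 1318 TPM in 2i and 505 and 637 TPM in serum cells, with centred differences from serum of -0.54 in knockout and -0.12 in 2i that did not pass.

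Cox7b fell most within complex IV in the knockout and rose in 2i. It encodes a small membrane subunit and had 29.2 and 24.8 TPM in knockout, 595 TPM in 2i and 218 and 205 TPM in serum bulk libraries. The centred difference was -4.05 ± 0.13 (limma adjusted p = 4.82e-06) in knockout and 1.24 ± 0.16 (adjusted p = 0.00166) in 2i. On the plates Cox7b had 259 TPM in knockout, 546 TPM in 2i and 192 and 212 TPM in serum cells. The knockout plate therefore lay above serum as deposited and below it only after centring (-1.2 ± 0.39, limma adjusted p = 0.0321), in contrast to the bulk libraries. Cox7c, Cox6c and Cox4i1 also fell in knockout bulk libraries under all 3 scalings, with centred differences of -1.85, -1.83 and -1.82. Cox4i1, which takes part in the regulation of the complex by ATP, was the 1 member of complex IV to fall in 2i as well, with 1968 and 2040 TPM in knockout, 1882 TPM in 2i and 3340 and 3155 TPM in serum.

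The promoters of Cox6a1 and Cox7b are shown as those of common subunits that moved in opposite directions in the knockout. Cox6a1 lies at chr5:115348909-115349208 (minus strand) and Cox7b at chrX:106015450-106015749 (plus strand), both GRCm38.p6. Capitals mark NRF1 (GCGC, any base, TGCGC), ETS (CCGGAAG) and CCAAT matches on either strand.
Cox6a1: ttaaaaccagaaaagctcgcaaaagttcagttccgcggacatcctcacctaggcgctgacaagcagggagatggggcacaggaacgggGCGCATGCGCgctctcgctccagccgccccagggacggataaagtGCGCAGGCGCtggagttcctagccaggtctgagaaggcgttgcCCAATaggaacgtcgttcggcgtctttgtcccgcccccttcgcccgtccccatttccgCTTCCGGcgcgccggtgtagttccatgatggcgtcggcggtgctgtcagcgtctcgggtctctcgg
Cox7b: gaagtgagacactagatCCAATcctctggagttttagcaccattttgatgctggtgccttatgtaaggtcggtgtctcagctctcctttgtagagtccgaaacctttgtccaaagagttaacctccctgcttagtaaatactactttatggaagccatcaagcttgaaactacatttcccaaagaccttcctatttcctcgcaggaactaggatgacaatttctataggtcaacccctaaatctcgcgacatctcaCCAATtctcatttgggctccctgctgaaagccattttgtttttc
The Cox6a1 window holds 2 NRF1 matches, 1 ETS match, 1 CCAAT box and 32 CpG. The Cox7b window holds 2 CCAAT boxes, no NRF1 or ETS match and 5 CpG. In the ChIP window of Cox7b, RNA polymerase II had 83 reads in knockout, 33 in 2i and 124 in serum, with log2 ratios to serum of -0.73 (95% interval -1.15 to -0.32) in knockout and -1.23 (-1.85 to -0.69) in 2i. The 2i ratio thus had the opposite sign to the transcript of Cox7b, which was highest in 2i.

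**Figure D3:**
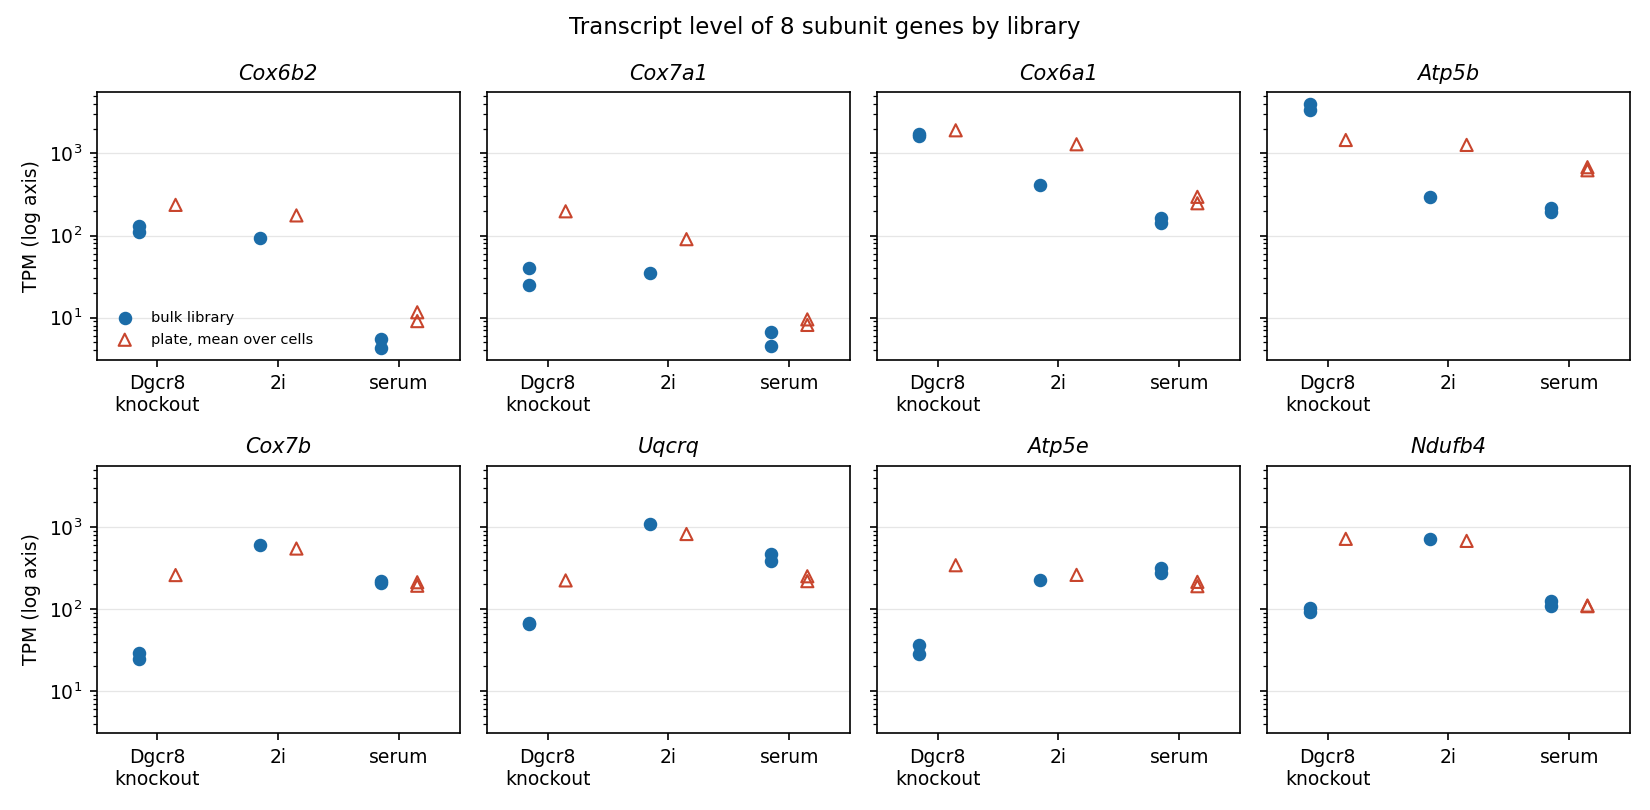
TPM of 8 subunit genes on a log axis, with filled circles for bulk libraries and open triangles for the mean over the cells of a plate, by group. Cox6b2, Cox7a1 and Cox6a1 were higher in knockout and 2i than in serum in both assays, whereas Cox7b, Uqcrq and Atp5e lay below both serum libraries in knockout bulk libraries but not below both serum plates.

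In complex I, 22 of 36 tested members (61.1%) rose in the 2i bulk library, where 14.1% of all genes rose. On the 2i plate 2 of 37 rose after centring, where 13.3% of all genes rose. As deposited 26 rose there, against 38.1% of all genes. The values that follow are from bulk. Ndufb4, Ndufc1 and Ndufa6, accessory subunits that surround the electron-carrying core, rose most. Ndufb4 had 704 TPM in 2i and 126 and 108 TPM in serum bulk libraries (2.34 ± 0.14, limma adjusted p = 9.16e-05). Ndufa6 had 368 TPM in 2i and 73.8 and 64.9 TPM in serum (2.15 ± 0.15, limma adjusted p = 0.000151). Ndufc1 had 796 TPM in 2i and 154 and 139 TPM in serum (2.19 ± 0.16, limma adjusted p = 0.000189). Ndufs1, the largest core subunit, was the 1 member of complex I that fell in 2i, with 10.1 TPM in 2i and 30.3 and 24.7 TPM in serum (-1.6 ± 0.16, limma adjusted p = 0.000607).

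In the knockout, 7 of 36 members of complex I rose (19.4%) and 5 fell (13.9%) under all 3 scalings, near the 21.8% and 11.4% of all genes. Ndufa13, an accessory subunit, had 278 and 276 TPM in knockout, 222 TPM in 2i and 69 and 77.2 TPM in serum (knockout against serum 0.78 ± 0.16, limma adjusted p = 0.00519). Ndufv1, the NADH-binding subunit, had 170 and 196 TPM in knockout and 39.5 and 54.8 TPM in serum (0.82 ± 0.24, limma adjusted p = 0.0213), but its call was lost at a pseudocount of 0.1 (adjusted p = 0.0814), without knockout library 2 (0.0759) and without serum library 1 (0.0528). Ndufa11 fell, with 33.9 and 31.8 TPM in knockout and 74.5 and 65.8 TPM in serum (-2.2 ± 0.12, limma adjusted p = 1.76e-05). Ndufa4 fell, with 410 and 377 TPM in knockout and 799 and 813 TPM in serum (-2.16 ± 0.14, limma adjusted p = 3.01e-05), and so did Ndufa2, with 75.2 and 63.7 TPM in knockout and 119 and 113 TPM in serum (-1.87 ± 0.13, limma adjusted p = 4.45e-05). The plates gave Ndufa4 1676 TPM in knockout, 1017 TPM in 2i and 612 and 868 TPM in serum, above serum as deposited.

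The promoter of Ndufb4, at chr16:37654319-37654618 (minus strand, GRCm38.p6), held 3 NRF1 matches and 1 CCAAT box, in capitals, and is shown as that of the complex I gene with the largest rise in 2i.
Ndufb4: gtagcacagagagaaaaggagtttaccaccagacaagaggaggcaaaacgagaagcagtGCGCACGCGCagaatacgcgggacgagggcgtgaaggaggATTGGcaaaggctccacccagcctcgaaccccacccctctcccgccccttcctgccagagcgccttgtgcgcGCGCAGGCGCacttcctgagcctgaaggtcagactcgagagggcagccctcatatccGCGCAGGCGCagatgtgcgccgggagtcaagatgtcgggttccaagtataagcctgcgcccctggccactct
In the ChIP window of Ndufb4, H3K27ac had 657 reads in knockout, 709 in 2i and 427 in serum, with log2 ratios to serum of 0.8 (95% interval 0.62 to 0.98) in knockout and 0.54 (0.37 to 0.72) in 2i. The transcript of Ndufb4 had 104 and 93.2 TPM in knockout bulk libraries but a mean of 716 TPM on the knockout plate, 677 TPM on the 2i plate and 108 and 110 TPM on the serum plates. Ndufb4 in the knockout was thus far below 2i in bulk and close to it on the plates.

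Complex II, the succinate dehydrogenase shared with the citrate cycle, is wholly nuclear. Sdhb, its iron-sulphur subunit, had 614 and 642 TPM in knockout, 519 TPM in 2i and 211 and 199 TPM in serum bulk libraries. It rose in both groups, by 0.48 ± 0.13 (limma adjusted p = 0.0161) in knockout and 1.09 ± 0.16 (adjusted p = 0.00252) in 2i, and the knockout call was lost without either knockout library (adjusted p = 0.0646 and 0.14) and at a pseudocount of 0.1 (0.146). Sdha, the flavoprotein that oxidises succinate, had 350 and 338 TPM in knockout, 89.7 TPM in 2i and 180 and 154 TPM in serum. It fell in 2i by -1.13 ± 0.14 (limma adjusted p = 0.00138) and was -0.09 ± 0.11 in knockout with centring (adjusted p = 0.534), but 1.04 as deposited (adjusted p = 3.47e-05). Sdhc, a membrane anchor, had 153 and 135 TPM in knockout, 80.1 TPM in 2i and 56.6 and 43.4 TPM in serum, with a knockout difference of 0.39 ± 0.13 (limma adjusted p = 0.0331) that no longer passed without knockout library 1 (adjusted p = 0.194), knockout library 2 (0.0936) or serum library 2 (0.0916). Sdhd, the other anchor, fell in knockout, with 128 and 99 TPM in knockout, 280 TPM in 2i and 267 TPM in each serum library (-2.37 ± 0.16, limma adjusted p = 3.18e-05).

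In complex III, 5 of 8 members rose in the 2i bulk library and 0 fell, while the knockout split them. Of all genes 14.1% rose and 11.8% fell in 2i under all 3 scalings. On the 2i plate 0 of 8 rose after centring, where 13.3% of all genes rose. As deposited 3 rose there, against 38.1% of all genes. Uqcr10, a small subunit, had 780 and 718 TPM in knockout, 2953 TPM in 2i and 659 and 709 TPM in serum bulk libraries (2i against serum 1.86 ± 0.19, limma adjusted p = 0.000649). Uqcrc1, one of the large core proteins, rose in knockout, with 1339 and 1465 TPM in knockout, 350 TPM in 2i and 207 and 223 TPM in serum (1.57 ± 0.16, limma adjusted p = 0.000206). Its plate means were 695 TPM in knockout, 403 TPM in 2i and 139 and 98.5 TPM in serum, in the same order. Uqcrq, a small ubiquinone-binding subunit, fell in knockout, with 67.7 and 65.3 TPM in knockout, 1092 TPM in 2i and 463 and 382 TPM in serum (-3.77 ± 0.11, limma adjusted p = 4.82e-06). Uqcrh, the hinge protein, and Uqcrb also fell in knockout, by -1.97 ± 0.14 and -1.77 ± 0.14. On the plates Uqcrq had 223 TPM in knockout, 821 TPM in 2i and 219 and 251 TPM in serum cells, and fell after centring (-1.63 ± 0.4, limma adjusted p = 0.0102) but not as deposited (-0.07). Uqcrh had 346 TPM in knockout, 454 TPM in 2i and 271 and 682 TPM in serum cells, with a centred difference of -1.87 ± 0.61 (limma adjusted p = 0.0331) and -0.31 as deposited. The knockout plate lay between the serum plates for both genes.

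In complex V, Atp5b stood apart from the other subunits in knockout bulk libraries (3.04 ± 0.15, limma adjusted p = 1.08e-05), with the values given above. Its plate means were 1459 TPM in knockout, 1271 TPM in 2i and 680 and 624 TPM in serum cells, a centred difference of -0.4 from serum in knockout. Between the knockout and 2i plates the difference was -0.03 after centring and 0.2 as deposited, and neither passed (limma adjusted p = 0.978 and 0.696). Atp5d, the delta subunit of the F1 head, had 141 and 170 TPM in knockout, 35.3 TPM in 2i and 33.8 and 28.9 TPM in serum (1.14 ± 0.15, limma adjusted p = 0.000644). Atp5e, the epsilon subunit of the same head, fell most of all members, with 36.4 and 28 TPM in knockout, 223 TPM in 2i and 312 and 273 TPM in serum (-4.28 ± 0.14, limma adjusted p = 4.82e-06). Knockout cells had a mean of 342 TPM of Atp5e, against 261 TPM in 2i and 190 and 214 TPM in serum cells, which is the opposite order as deposited. Atp5g1, Atp5l and Atp5j2, small membrane subunits, fell by -2.85, -2.81 and -2.44 in knockout bulk libraries. In the 2i bulk library, Atp5c1 and Atp5k rose by 1.32 ± 0.19 and 1.29 ± 0.15. On the plates their 2i differences were -1.1 and -0.25 after centring and 0.24 and 1.08 as deposited. Atp5a1, the alpha subunit, fell in 2i in bulk by -1.07 ± 0.2 (limma adjusted p = 0.00726), with 1731 and 2032 TPM in knockout, 365 TPM in 2i and 637 and 657 TPM in serum. Of the 8 members of complex V that rose in 2i in bulk under all 3 scalings, 1 was higher on the plates under both scalings. Of the 3 that fell, 0 were lower there.

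The c-ring of complex V is encoded by 3 genes with the same mature protein. Atp5g1 had 366 and 356 TPM in knockout, 1992 TPM in 2i and 1206 and 1179 TPM in serum bulk libraries. Atp5g2 had 720 and 720 TPM in knockout, 351 TPM in 2i and 518 and 446 TPM in serum. Atp5g3 had 245 and 239 TPM in knockout, 414 TPM in 2i and 178 and 146 TPM in serum. Per length, Atp5g2 was thus the most abundant of the 3 in knockout bulk libraries and Atp5g1 in 2i and serum. The plates gave another order. Atp5g1 had 555 TPM in knockout, 1309 TPM in 2i and 567 and 580 TPM in serum cells. Atp5g2 had 717 TPM in knockout, 558 TPM in 2i and 354 and 374 TPM in serum cells. Atp5g3 had 830 TPM in knockout, 1296 TPM in 2i and 674 and 619 TPM in serum cells, the most of the 3 in knockout and serum cells. Reads of such near copies can be split between them in counting, so their levels are less certain than those of single genes.

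The Atp5e promoter, at chr2:174464052-174464351 (minus strand, GRCm38.p6), is shown for the member that fell most in bulk. Capitals mark its ETS match and its 2 CCAAT boxes.
Atp5e: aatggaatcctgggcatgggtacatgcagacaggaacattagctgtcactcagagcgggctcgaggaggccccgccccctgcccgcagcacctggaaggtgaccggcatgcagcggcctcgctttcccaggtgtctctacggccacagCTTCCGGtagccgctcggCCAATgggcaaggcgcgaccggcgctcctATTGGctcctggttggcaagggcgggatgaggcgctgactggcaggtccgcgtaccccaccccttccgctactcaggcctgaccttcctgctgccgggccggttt
In the ChIP window of Atp5e, H3K4me3 had 537 reads in knockout, 677 in 2i and 1492 in serum, with log2 ratios to serum of -0.2 (95% interval -0.34 to -0.06) in knockout and -0.52 (-0.65 to -0.38) in 2i. The knockout ratio was less negative than that of the median member, given below. How far the ratios of this window depend on the scaling was not tested. RNA polymerase II in that window had 203, 111 and 236 reads in knockout, 2i and serum.

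The knockout and 2i libraries were also compared directly, since both comparisons above share the serum libraries. With centred values 11 of 81 members were higher in knockout, where 19.8% of all genes were, and 56 were lower, where 30.5% were. Under all 3 scalings 11 were higher, against 19.8% of all genes, and 39 were lower, against 11.5%. The lower members included 5 of 8 in complex III and 10 of 17 in complex V. Uqcrq (-4.9 ± 0.14, limma adjusted p = 1.38e-05) and Cox7b (-5.3 ± 0.16, adjusted p = 1.53e-05) differed most. Of the 39 lower members 27 were also lower on the knockout plate than on the 2i plate under both scalings of the plates, and of the 11 higher members 6 were higher. Few members passed this comparison on the plates: after centring 4 of 83 members were higher, where 9.58% of all genes were, and 3 were lower, where 9.48% were. As deposited 3 were higher on the plates, against 5.44% of all genes, and 0 lower, against 1.79%.

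The members were also set out by core and accessory subunits in this direct comparison, as a description with no test between the classes. The classes are those of textbooks, with the 7 core subunits of complex I, Sdha and Sdhb, the core and Rieske proteins of complex III and the F1 head and OSCP in complex V, and they were formed after the values were seen. With centred values 19.8% of all genes were higher in knockout than in 2i in bulk and 30.5% were lower. Of 18 core subunits 8 were higher in knockout than in 2i, 8 were lower and 2 did not pass, with a median difference of 0.14. Of 47 other subunits of these complexes 1 was higher, 39 were lower and 7 did not pass, with a median of -1.73, and the 1 that was higher was Atp5s. As deposited 10 of the core were higher and 4 lower, and 6 of the others were higher and 31 lower, where 49.4% of all genes were higher and 12% lower. In complex I, 25 of 29 accessory subunits were lower and 0 higher after centring, and 17 were lower and 3 higher as deposited. On the plates the medians were -0.07 for the core and -0.41 for the others, and 0 of 18 core subunits passed, against 2 higher and 3 lower of 48 others. Of all genes 9.58% were higher on the plates after centring and 9.48% were lower. The part of transcript length in this split was not tested.

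The plates are a separate set of libraries, in which cells were averaged and the plate was the unit. After centring, 7 of 83 tested members rose in knockout relative to the serum plates, where 17% of all 11087 genes rose, and 11 fell, where 28.1% fell. As deposited 39 rose, against 49.4% of all genes, and 0 fell, against 2.78%, with a lowest difference of -0.31. In 2i, 4 members rose, where 13.3% of all genes rose, and 5 fell, where 20.3% fell. As deposited 44 rose in 2i, against 38.1% of all genes, and 0 fell, against 1.77%, with a lowest difference of -0.53. Of the 5 that fell in 2i, Cox4i2, Cox8c and Ndufa4l2 were listed at 0 on the 2i and serum plates, so their difference of -1.33 is the shift of the median gene. Cox6b2, Cox7a1 and Ndufb4 rose in both groups under both scalings of the plates. In knockout cells Cox6a1 and Atp5s also did, as did Ndufa4l2 and Cox8c, which were listed at 0 on the serum plates. Atp5s had 41.5 TPM in knockout, 14.8 TPM in 2i and 4.43 and 2.39 TPM in serum cells (knockout against serum 1.75 ± 0.26, limma adjusted p = 0.000766). Of the centred bulk calls in knockout, 13 of 17 rises (76.5%) and 38 of 50 falls (76%) had the same sign on the plates, against 85.7% and 89.2% of the calls among all genes. As deposited 42 of 42 rises and 4 of 22 falls (18.2%) did, against 98% and 58.3% of those of all genes. In 2i, 30 of 44 rises (68.2%) and 6 of 7 falls (85.7%) had the same sign after centring, against 88.5% and 86.1% among all genes. As deposited 60 of 60 rises and 1 of 6 falls (16.7%) did in 2i, against 96.9% and 33.7% among all genes.

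**Figure D4:**
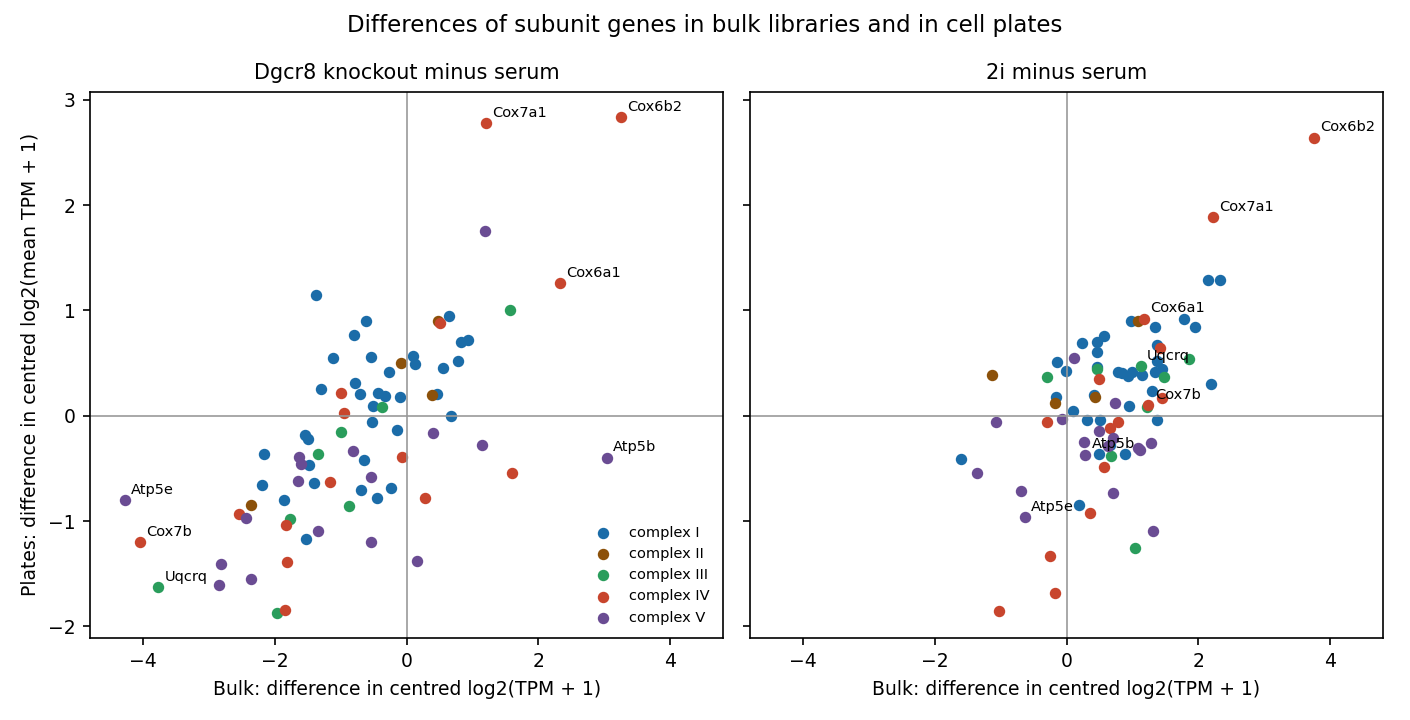
Difference from serum in centred log2(TPM + 1) in bulk libraries (horizontal axis) and between plates (vertical axis, log2 of the mean TPM over cells + 1), with 1 point per member, coloured by complex. Cox6b2 and Cox7a1 lie at the upper right in both groups, and Atp5b lies far right but below 0 on the plates in the knockout.

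Variation from cell to cell was measured as the SD over cells of log2(TPM + 1), minus the running median of that SD among genes of like mean level. On the mESC plates the members varied as much as like genes, with a median excess of 0.00077 in knockout, -0.008 in 2i and -0.013 and -0.035 in serum cells. Complex V had the lowest median excess of the complexes on each mESC plate, from -0.022 in 2i to -0.077 on serum plate 2. These medians are small, since the quartiles of all genes were -0.121 and 0.154 on serum plate 2. Of its 17 members 12 lay below like genes in knockout, 13 in 2i and 14 on each serum plate, against 49.7%, 49.8%, 50% and 49.7% of all genes. For the most abundant genes the running window held fewer genes above than below them, and the part of this in the excess was not tested. Among subunits the lowest excess was that of Ndufa11 in knockout (-0.46), in 2i (-0.25) and on serum plate 1 (-0.22), and that of Ndufs4 on serum plate 2 (-0.19), both accessory subunits of complex I. Cox4nb, which is no subunit, lay lower still in knockout (-0.5) and on the serum plates (-0.3 and -0.24). Ndufs5, an accessory subunit, varied most in knockout cells (0.87) and was among the most variable on both serum plates (0.45 and 0.66). Cox7a1 was the most variable member in 2i (0.73) and on serum plate 1 (0.71), and Cox6b2 on serum plate 2 (0.69). Cox6b2 and Cox7a1 were among the 3 most variable members on both serum plates.

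The members were also compared pair by pair across the cells of each plate. The median Spearman correlation over pairs of members was 0.0918 in knockout, 0.119 in 2i 0.35 and 0.223 on the serum plates and 0.234 in NPCs, against 0.0162, 0.00476, 0.0589, 0.0443 and 0.0385 over all gene pairs. With the number of genes detected per cell held fixed, the medians were 0.0947 in knockout, 0.116 in 2i, 0.309 and 0.156 in serum cells and 0.197 in NPCs. Pairs within complexes gave 0.0922 in knockout, 0.111 in 2i, 0.361 and 0.25 in serum cells and 0.242 in NPCs, close to 0.0916, 0.123, 0.343, 0.213 and 0.232 for pairs across complexes. The knockout and 2i plates had the lowest medians of the 5 plates. In sparse single-cell values such correlations describe the plates, whose cells share chip, library and range of depth.

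The share of TPM taken by the members varied between the cells of a plate. It ran from 1.7% to 5.28% with a median of 4.27% in knockout cells, from 3.56% to 5.63% with a median of 4.48% in 2i cells, from 1.11% to 4.15% with a median of 1.79% on serum plate 1 and from 1.46% to 3.57% with a median of 2.32% on serum plate 2. The lowest 2i cell was above the third quartile of both serum plates, 2.15% and 2.6%.

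**Figure D5:**
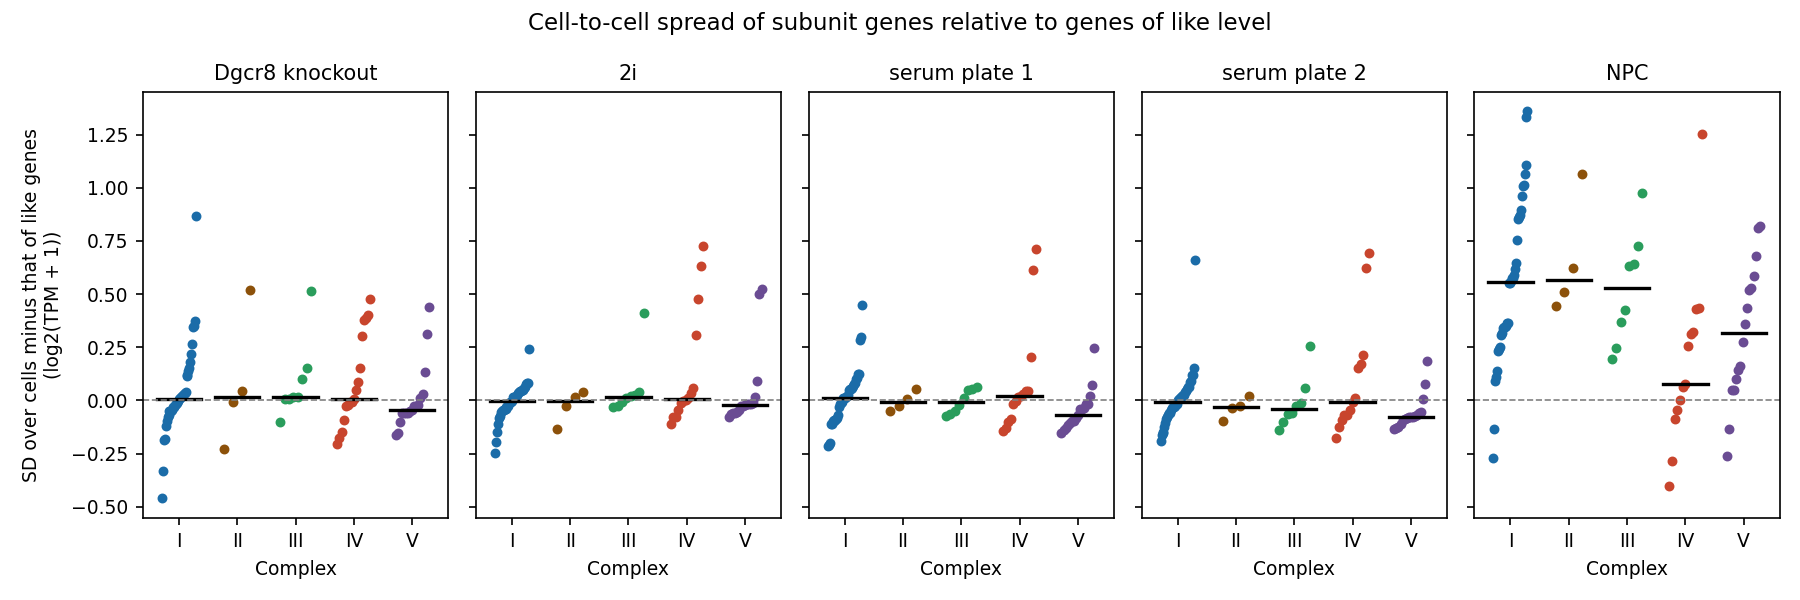
SD over cells of log2(TPM + 1) minus that of genes of like mean level (vertical axis) for members of complexes I to V on each plate, with 1 point per gene, a black bar at the median of the complex and a dashed line at 0. The medians of the complexes lay near 0 on the mESC plates, from -0.077 (complex V, serum plate 2) to 0.019 (complex IV, serum plate 1). On the NPC plate they ran from 0.0791 (complex IV) to 0.568 (complex II).

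In NPCs the members took 2.69% of TPM, from 0.71% to 4.125% across cells, between the serum plates and the other mESC plates. The NPC table was deposited separately, so its levels stand beside those of the mESCs without a test. Centred on the median gene, the median member lay at 4.11 on the log2 scale in NPCs, 4.51 in knockout, 5.15 in 2i and 4.65 and 4.77 in serum cells. Cox5a, a nuclear subunit of complex IV, had 146 TPM in NPCs, against 716 TPM in knockout, 1185 TPM in 2i and 397 and 439 TPM in serum cells. Ndufa2 had 521 TPM in NPCs, against 184 TPM in knockout, 395 TPM in 2i and 108 TPM on each serum plate. On the NPC plate the members varied far more than genes of like level, with a median excess SD of 0.397. Of 78 members 9 lay below like genes, against 49.9% of all genes. By complex the NPC medians were 0.556 for complex I, 0.568 for complex II, 0.529 for complex III, 0.0791 for complex IV and 0.318 for complex V. Ndufb9 (1.36), Ndufs8 (1.33) and Cox6a1 (1.25) varied most, and Cox7b (-0.4) and Cox6c (-0.28) least among subunits. NPC cells held between 5476 and 9662 genes, and the part of that range in their spread was not tested.

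The ChIP windows of the members carried active marks in all mESC groups. The median H3K4me3 count of a member was 559 in knockout, 995 in 2i and 1602 in serum, where the median window of all genes had 111, 128 and 273 reads, and 78 of 85 members lay above it in each. For H3K27ac the median member had 307 reads in knockout, 447 in 2i and 305 in serum, against 63, 92 and 81 for all windows. RNA polymerase II had 92 reads in knockout, 57 in 2i and 94 in serum, against 32, 18 and 27. H3K27me3, the Polycomb mark, was below the median window, at 13 reads in knockout, 13 in 2i and 15 in serum, against 18, 16 and 20. The 6 tissue isoforms Cox4i2, Cox6a2, Cox7b2, Cox8b, Cox8c and Ndufa4l2 had H3K4me3 counts between 3 and 66, with 13 reads for Ndufa4l2 in knockout, 3 in 2i and 18 in serum.

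Median changes of the marks over the members were smaller than those of the transcripts in bulk libraries, but not all were smaller than those on the plates. The median centred transcript difference of the members from serum was -0.69 in knockout and 0.67 in 2i bulk libraries. On the plates it was -0.22 in knockout and 0.12 in 2i. With the ratios of all windows centred on a median of 0, the median member had a log2 ratio to serum of -0.28 for H3K4me3, 0.27 for H3K27ac and -0.15 for RNA polymerase II in knockout. In 2i the ratios were 0.03, 0.27 and -0.04. Each rested on 1 library per mark and group, so that no test was possible. When windows were scaled to the sum of all counts instead, the H3K27ac medians were 0.06 in knockout and 0.13 in 2i. The window of Atp5b had 984 H3K4me3 reads in knockout, 2152 in 2i and 2944 in serum, a log2 ratio of -0.31 (95% interval -0.41 to -0.2) in knockout, where the Atp5b transcript was highest in bulk.

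The promoters of 69 members matched the RefSeq table. The NRF1 motif (GCGC, any base, TGCGC), read on both strands, was found in 16 of them (23.2%), against 4.78% of all 27025 promoters of the same length. The ETS motif CCGGAAG was found in 15 (21.7%), against 9.12%, the YY1 motif AAGATGGCG in 7 (10.1%), against 1.49%, and CCAAT in 31 (44.9%), against 37.9%. NRF1 and the ETS factor GABP are known as regulators of nuclear genes for respiration. Among promoters with at least 15 CpG, the NRF1 motif was found in 30.8% of 52 members against 12.3% of 9514 promoters, closer as a ratio but not in percentage points. The shares were closer for the other motifs, with 25% against 19% for ETS, 9.62% against 3.49% for YY1 and 38.5% against 36.2% for CCAAT. A match describes these letters and does not show a bound site.

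Partners of the complexes were taken as lists. Under all 3 scalings 21.8% of all genes rose and 11.4% fell in knockout, and 14.1% rose and 11.8% fell in 2i. Of 13 tested carriers and inner membrane proteins, 5 rose and 3 fell in knockout and 7 rose and 0 fell in 2i under the same rule. Cycs, somatic cytochrome c, had 109 and 107 TPM in knockout, 315 TPM in 2i and 222 and 204 TPM in serum bulk libraries (knockout against serum -2.1 ± 0.12, limma adjusted p = 1.91e-05). Usmg5, a small protein bound to complex V, had 95.9 and 101.1 TPM in knockout, 628 TPM in 2i and 352 and 330 TPM in serum (-2.91 ± 0.13, limma adjusted p = 8.8e-06). Etfb, which with Etfa hands electrons from fatty acid oxidation to coenzyme Q, had 388 and 407 TPM in knockout, 570 TPM in 2i and 55.7 and 61.5 TPM in serum, and rose in both groups (1.62 ± 0.16 and 3.02 ± 0.2, limma adjusted p = 0.00018 and 0.000106). Of 39 tested assembly factors 2 rose and 4 fell in knockout and 8 rose and 1 fell in 2i, so that fewer rose in knockout than the share of all genes gives. The 1 mitochondrially encoded row tested, mt-Nd4 of complex I, had 197 and 166 TPM in knockout, 46.2 TPM in 2i and 167 and 153 TPM in serum, and fell in 2i (-2.01 ± 0.16, limma adjusted p = 0.000223), opposite to most nuclear subunits of complex I.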

How the data were processed

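Bulk and single-cell RNA tables and ChIP window counts were used. The authors' deposited RNA values are the natural log of TPM + 1, as their range and their back-transformed column sums show, and they were turned back into TPM. The authors' ChIP values are deposited counts per window of a gene, and where a window lies relative to the gene start is not stated. Bowtie, RSEM and the build mm9 appear, without roles or versions, in the submitters' processing notes. No read depth can be given for TPM.

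Rows named by dates were left out (51 in the mESC table, 25 in the NPC table), and rows with identical values were collapsed (bulk 21001 to 16677, mESC 22392 to 14430). Genes with a mean of at least 1 TPM were tested on log2(TPM + 1), centred on the median gene, with limma 3.58.1 (R 4.3.3) and Benjamini-Hochberg adjustment over all genes at 0.05. The residual degrees of freedom were 2 in bulk (prior 4.95) and 1 on the plates (prior 8.13), and the lone 2i library and the lone knockout and 2i plates were assumed to vary like the others. Since nothing says that the libraries came from separate cultures, the spread behind each p-value is that of these samples alone and may be technical. No doublet caller was run. The fit was tested on simulated data.

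Members and lists were chosen with earlier results of these data known. Named genes were the complex II subunits, the 3 largest changes per complex, direction and bulk comparison, the paired isoforms, the most and least variable members of each plate and the 3 most abundant per complex. A gene that this rule also takes in is not reported here. Genes of the partner lists were named by the size of their change. Cox5a, Ndufa2 in NPCs, Atp5s on the plates, Uqcrc1 on the plates and the core classes were singled out after their values were seen. Levels, shares and intervals were computed with Python 3.11.15, pandas 2.3.3 and scipy 1.17.1. Alternatives covered scaling, pseudocount, filters, identical rows, single libraries and a replicate block.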

Additional observations from a re-analysis of the deposited data

How the results depend on the processing

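The scale decided the direction of the family in knockout bulk libraries: 42 members rose and 22 fell as deposited, and 39 rose and 28 fell after quantile normalisation. Of the 67 centred calls 39 were kept as deposited and 12 were called in the opposite direction. Of the 51 calls in 2i, 50 were kept as deposited and 50 after quantile normalisation. Between knockout and 2i, 19 members were higher as deposited and 20 after quantile normalisation, and 52 of 67 calls were kept under each. The difference of Sdhb between knockout and 2i was -0.61 with centring, 0.27 as deposited and 0.76 after quantile normalisation. When each library was left out in turn, 11 to 16 members rose and 43 to 47 fell in knockout, 40 to 51 rose and 6 to 7 fell in 2i, and 10 to 11 were higher and 50 to 54 lower in knockout than in 2i. On the plates, 39 members rose and 0 fell in knockout and 44 rose and 0 fell in 2i as deposited. With the mean of log2 over cells, 20 rose and 7 fell in knockout and 11 rose and 8 fell in 2i. With no filter, 11 rose in knockout, and 8 rose and 9 fell in 2i. At a pseudocount of 0.1, 1 fell in 2i, and the NPC excess SD was 0.766. Without serum plate 1 or 2 the median member on the plates was -0.35 or -0.08 in knockout and -0.04 or 0.27 in 2i. With identical rows kept, the members took 2.67% and 2.83% of TPM in knockout, 4.15% in 2i and 2.21% and 2.16% in serum. Causes of these changes were not tested. Centring on genes of like coding length was not run, since no lengths were used here.

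With the replicate block, 18 members rose and 50 fell in knockout against serum, and all 67 calls were kept. Same-numbered libraries did not deviate together (correlation -0.0144 over 8988 genes), so the numbers were not taken to pair them.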

Other observations

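Under all 3 scalings 21.8% of all genes rose and 11.4% fell in knockout, and 14.1% rose and 11.8% fell in 2i. Of the 17 tested genes of the citrate cycle 1 rose and 5 fell in 2i under all 3 scalings, and 5 rose and 1 fell in knockout. Pdha1, of the pyruvate dehydrogenase complex, had 128 and 130 TPM in knockout, 38.5 TPM in 2i and 110 and 87.5 TPM in serum bulk libraries (2i against serum -1.57 ± 0.15, limma adjusted p = 0.00046). Dld, the subunit that pyruvate and oxoglutarate dehydrogenase share, had 48.8 and 52.2 TPM in knockout, 10.4 TPM in 2i and 30.6 and 26.2 TPM in serum (2i against serum -1.61 ± 0.17, limma adjusted p = 0.000692). Cs, citrate synthase, had 252 and 266 TPM in knockout, 42.1 TPM in 2i and 106 and 82.5 TPM in serum. In bulk 9 genes of the cycle were higher in knockout than in 2i under all 3 scalings, against 19.8% of all genes. None were lower, against 11.5% of all genes. On the plates 0 of 17 passed this comparison after centring, with a median difference of -0.04. Of all genes 9.58% were higher there and 9.48% lower. Sucla2, a subunit of succinyl-CoA ligase, rose in knockout, with 114 and 115 TPM in knockout, 31.8 TPM in 2i and 19.8 and 15.4 TPM in serum (1.52 ± 0.13, limma adjusted p = 8.61e-05).

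Of 8 tested genes of coenzyme Q synthesis 4 rose and 0 fell in knockout, and 3 rose and 0 fell in 2i, under all 3 scalings, while 3 fell in knockout with centred values alone. Coq9 had 51.3 and 51.4 TPM in knockout, 7.07 TPM in 2i and 9.25 and 5.66 TPM in serum. Of 6 enzymes against superoxide and peroxides 4 rose and 1 fell in knockout, and Sod2, the mitochondrial superoxide dismutase, had 76.5 and 65.7 TPM in knockout, 61.7 TPM in 2i and 22 and 20.2 TPM in serum. Txn2, mitochondrial thioredoxin, was the 1 that fell, with 107 and 88.3 TPM in knockout, 130 TPM in 2i and 172 and 202 TPM in serum. Of 10 tested regulators of mitochondrial genes, 1 rose and 0 fell in each of knockout and 2i, no more than the share of all genes gives, and 5 fell in knockout with centred values alone. That gene was Tfb1m, with 7.14 and 7.66 TPM in knockout, 4.22 TPM in 2i and 1.37 and 1.22 TPM in serum.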
